A study of Rattus norvegicus with 6 samples.

Results

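Fibroblast growth factors (FGFs), the epidermal growth factor (EGF) family and hepatocyte growth factor (HGF) are secreted or membrane-shed proteins that signal through receptor tyrosine kinases. Their expression was compared between fetal and postnatal rat pancreatic islets. The genes were chosen by name, from the row names of the expression table, as FGF and EGF family ligands, their receptors, HGF, the Sprouty and SPRED genes and the dual-specificity phosphatase (DUSP) genes. This gave 63 of the 18625 genes in the table: 23 ligands, 4 intracellular FGF homologous factors, 8 receptors, 14 feedback genes, 12 atypical DUSPs, and 2 genes that match by name alone, Fgfr1op2 and Dusp14l1. Met, the receptor of HGF, and the EGF gene itself are not analysed here.

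Pancreatic islets hold the endocrine cells of the organ. They were taken from rats at embryonic day 19 (fetal, 3 libraries) and after birth (postnatal, 3 libraries), with no treatment or genetic change named in the labels. By title all postnatal libraries are 2 weeks old, but a separate age field puts replicate 1 at week 2, replicate 2 at week 3 and replicate 3 at week 4. The libraries were made from total RNA depleted of ribosomal RNA, and 26051449 to 37819935 reads were recovered per library. No label ties a replicate to an animal of its own, so the p-values speak of the spread among these libraries alone, and part of that spread may be technical.

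FGFs bind FGF receptors together with heparan sulfate chains on the cell surface, ligands of the EGF family bind receptors of the ERBB family, and HGF binds MET. All of them switch on the RAS-ERK kinase cascade, and that cascade induces genes of its own inhibitors: Sprouty and SPRED proteins act on the way from receptor to RAF, and MAP kinase phosphatases of the DUSP family remove phosphate from ERK, p38 or JNK. In the developing pancreas, FGF10 from the mesenchyme drives growth of the epithelial progenitors, and EGF family signals act on later endocrine growth.

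The 3 Sprouty genes chosen by name, Spry1, Spry2 and Spry4, are introduced by the DNA before their start sites. Dusp1 is shown as well, for the largest difference of the feedback group. Spry3 is not among the 63 genes. Dusp8 and Dusp4, which differed by more than Spry4, are not shown. Each sequence is the 250 bases upstream of the RefSeq start site in the rat assembly GRCr8, written 5′ to 3′ on the strand of the gene. Since the genome build of the expression values is not given in the sources used here, the sequences are a description of the genes and not of the measured reads. Capitals mark 2 motifs searched on both strands: CCGGAA, the core bound by ETS factors, and TGACGTCA, the cAMP response element; the motifs do not overlap each other.

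Dusp1, chr10:17184603-17184852, plus strand: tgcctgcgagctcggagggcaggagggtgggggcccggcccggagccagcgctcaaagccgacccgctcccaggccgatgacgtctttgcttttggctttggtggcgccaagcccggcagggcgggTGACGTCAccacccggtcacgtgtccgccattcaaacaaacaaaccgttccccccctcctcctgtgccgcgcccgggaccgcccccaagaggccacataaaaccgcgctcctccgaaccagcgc

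Spry1, chr2:122485097-122485346, plus strand: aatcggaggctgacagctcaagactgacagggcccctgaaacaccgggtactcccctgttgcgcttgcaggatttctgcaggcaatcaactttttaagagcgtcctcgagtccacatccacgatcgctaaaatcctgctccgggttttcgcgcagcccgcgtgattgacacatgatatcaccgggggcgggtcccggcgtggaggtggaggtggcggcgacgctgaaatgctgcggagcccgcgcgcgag

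Spry2, chr15:89111927-89112176, minus strand: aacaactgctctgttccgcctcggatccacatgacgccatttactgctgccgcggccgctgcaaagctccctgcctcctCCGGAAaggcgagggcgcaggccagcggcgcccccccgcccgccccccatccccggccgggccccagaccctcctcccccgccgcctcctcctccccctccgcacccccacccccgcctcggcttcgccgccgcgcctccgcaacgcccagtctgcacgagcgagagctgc

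Spry4, chr18:30702547-30702796, minus strand: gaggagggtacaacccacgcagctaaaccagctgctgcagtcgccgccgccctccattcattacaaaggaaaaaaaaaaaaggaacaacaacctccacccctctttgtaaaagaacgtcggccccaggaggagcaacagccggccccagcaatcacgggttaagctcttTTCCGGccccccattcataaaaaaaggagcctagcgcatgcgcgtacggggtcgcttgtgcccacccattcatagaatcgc

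The Dusp1 window held the cAMP response element 117 to 124 bases before the start. The Spry2 window held the ETS core 166 to 171 bases before the start, and the Spry4 window held it on the other strand, 76 to 81 bases before the start. Spry2 has 2 annotated starts, and the window of the other start held neither motif. The Spry1 window held neither motif. Among the 33469 windows of this length for all rat genes, 12.6% held the ETS core and 1.59% the cAMP response element. Of the 14 windows that matched 13 of the 14 feedback genes, 2 held the ETS core (Spry2 and Spry4) and 1 the cAMP response element (Dusp1). A match of letters is not evidence of binding.

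Expression is given as scaled CPM, the reads of a gene scaled to an adjusted library size (CPM, counts for a fixed number of library reads). Differences are postnatal minus fetal on the log2(scaled CPM + 1) scale with the standard error (SE) of limma's model, which understates the change of low genes. A gene rose or fell where limma's Benjamini-Hochberg adjusted p over all tested genes was under 0.05, and a gene was tested where at least 3 libraries had a value of at least 1. Of the 63 genes, 43 were tested, 22 rose, 7 fell and 14 did not pass; over all 12926 genes tested, 63.1% were called, 30.0% as higher and 33.1% as lower, with a median difference of -0.03. The corresponding shares of the 43 genes were 67.4%, 51.2% and 16.3%, with a median of 0.46. Rescaled without the 20 highest genes, 5047 genes were higher and 3222 lower in place of 3874 and 4278, and of the 43 genes 23 rose and 5 fell. The fetal and postnatal values did not overlap in 29 of the 43, or 67.4%, against 70.0% of all tested genes. Fgf1, Fgf7 and Fgf10 reached the minimum in the postnatal libraries alone, so they could enter the test only as higher genes.

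Markers of other cell types differed between the groups, and their part in the results below was not tested. Summed markers of mesenchyme (6 genes, Col3a1 and Pdgfra among them) stood at 1474 to 2220 scaled CPM in the fetal and 6625 to 11661 in the postnatal libraries, and all 6 rose. Endothelial markers (6 genes, all risen) went from 184 to 279 up to 537 to 783, mesothelial markers (3 of 4 risen) from 109 to 174 up to 529 to 865, Schwann cell markers (4 of 5 risen) from 10.1 to 10.9 up to 26.6 to 57.3, and macrophage markers (4 of 6 risen) from 35.8 to 70.8 up to 56.6 to 114. The 6 islet hormone genes took 0.214% to 0.612% of the reads before and 4.06% to 11% after birth, and all of them rose. The 9 acinar genes took 5.78% to 7.68% and 13.8% to 27.8%, and 6 rose. Duct markers ranged from 191 to 231 and from 208 to 304 (1 of 5 fell, none rose), and erythroid markers from 113 to 218 and from 16.9 to 23.7 (3 of 5 tested fell; Hbe1 was at 0 in at least 1 library). Hepatocyte markers reached 6457 in fetal replicate 2, against 197 and 266 in the other fetal and 71.8 to 107 in the postnatal libraries. Of 4 tested hepatocyte markers, 2 fell, Afp (-6.36 ± 1.32) and Serpina1 (-1.82 ± 0.30), and both were lower in every postnatal than in every fetal library. Lymphocyte markers summed to at most 1.5 in the fetal and 12 in the postnatal libraries, with Cd3e at 0 in at least 1 library, and adipocyte markers to at most 1.43 and 30.9, with Lep and Plin1 at 0 in at least 1 library. Fetal replicate 2, by its hepatocyte markers, and postnatal replicate 1, by its acinar share, thus stood apart. Without both, 21 of the 43 genes rose and 9 fell. In every library the 9 acinar genes took a larger share of the reads than the 6 islet hormone genes. These islet preparations thus held exocrine RNA as well. More cells of a type and more RNA per cell cannot be told apart in them.

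Of the 14 secreted FGF ligand genes, 9 were too low to test; of the other 5, Fgf1, Fgf7, Fgf10 and Fgf9 rose and Fgf22 did not pass. Fgf1, Fgf7 and Fgf10 could enter the test only as higher genes, so this count says nothing about the family's direction. Fgf1, the acidic FGF that binds all FGF receptors, stood at 0.890, 0.944 and 0.956 scaled CPM in the fetal and 4.96, 5.64 and 5.46 in the postnatal libraries. The values lay close together within each group and far apart between them, with means of 0.93 ± 0.0348 and 5.36 ± 0.354 (SD, n = 3 each) and a log2 difference of 1.72 ± 0.14 SE (limma adjusted p = 5.71e-05). These levels rest on 29 to 39 reads per fetal and 98 to 164 per postnatal library. Fgf10, the mesenchymal signal to epithelial FGF receptor 2, stood at 0.798, 0.750 and 0.524 before and 2.43, 2.79 and 2.22 after birth (1.04 ± 0.15; adjusted p = 7.72e-04). Its close relative Fgf7, keratinocyte growth factor, went from 0.276, 0.557 and 0.277 to 1.27, 1.86 and 1.88 (0.96 ± 0.18; adjusted p = 0.00210). For both genes, as for Fgf1, every postnatal library lay above every fetal one. Since their fetal values were all below 1, the minimum for the test required this separation, so it adds no support.

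Fgf9, which signals mainly to mesenchymal forms of the FGF receptors, stood at 1.01, 0.944 and 1.29 in the fetal and 2.23, 1.82 and 2.49 in the postnatal libraries (0.61 ± 0.16; adjusted p = 0.0110). Its rise did not pass without fetal replicate 2 and postnatal replicate 1 together (0.55; adjusted p = 0.0561). Fgf22, a further member of the FGF7 subfamily, stood at 1.72 to 1.88 before and at 3.75, 2.62 and 1.54 after birth, and the groups overlapped through postnatal replicate 3. It did not pass (0.32 ± 0.23; adjusted p = 0.252), except without that library (0.56; adjusted p = 0.0402). At these low levels the size depended on the scale: with a pseudocount of 0.1 in place of 1 the differences of Fgf7, Fgf10 and Fgf9 were 1.94, 1.72 and 0.95, with edgeR on recovered reads 2.19, 1.88 and 1.05, and with a pseudocount of 5 they were 0.31, 0.39 and 0.24. The larger pseudocount also lowered Fgf1 to 0.80, Hgf to 0.59, Erbb4 to 1.05, Dusp8 to 0.74, Dusp14 to 0.60, Dusp4 to 0.44, Dusp18 to 0.40 and Spred2 to 0.37. The falls of Nrg2, Dusp27 and Btc became -0.68, -0.45 and -0.42 with it.

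**Figure D1:**
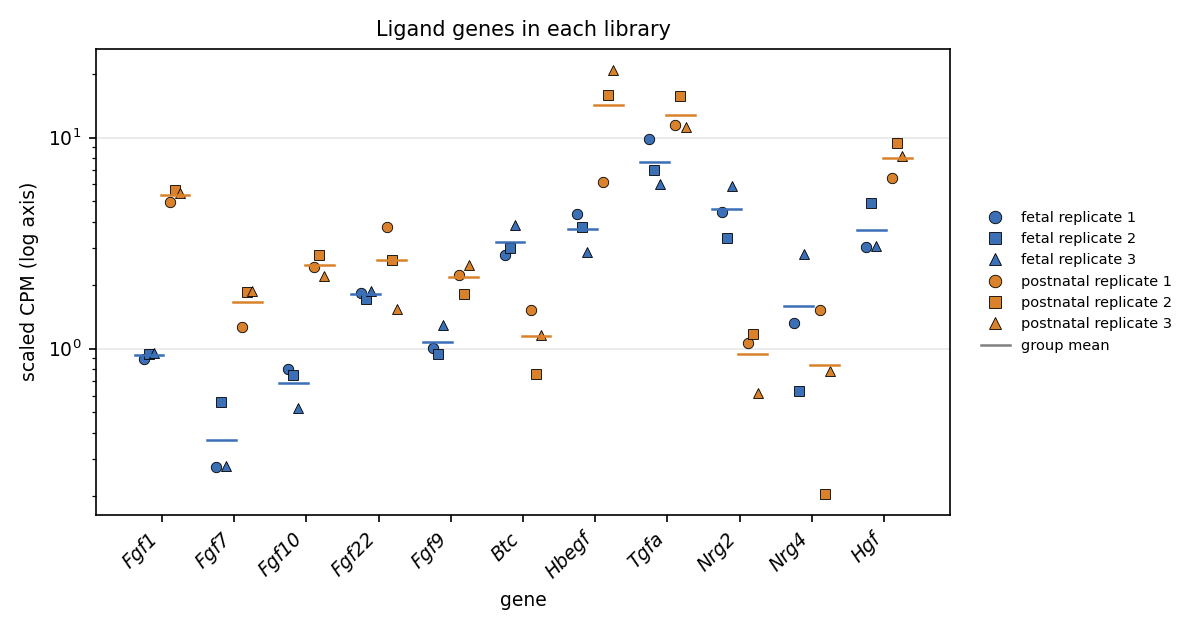
Scaled CPM (log axis) of the 11 tested ligand genes in the 3 fetal (blue) and 3 postnatal (orange) libraries; symbols are replicates and lines are arithmetic group means. Fgf1, Fgf7 and Fgf10 lie below 1 in every fetal library, so the minimum for the test required all 3 postnatal values to reach 1. Nrg2 and Btc lie lower after birth.

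The other 9 secreted FGF genes were below the minimum for the test. Fgf2, the basic FGF, had 6, 9 and 8 reads in the fetal and 12, 30 and 26 in the postnatal libraries, or 0.184 to 0.247 and 0.607 to 1.03 scaled CPM. Fgf17 had 1, 3 and 1 reads before and 7, 6 and 10 after birth, and Fgf21, a hormone-like FGF, had 4, 5 and 4 before and 11, 19 and 9 after. Fgf8 went the other way, with 2, 5 and 11 reads before and 0, 0 and 1 after birth. A count test chosen after the data were seen, edgeR's quasi-likelihood test over all 15522 genes with at least 10 reads in all, called 55.9% of them and placed Fgf2 (adjusted p = 0.00447), Fgf17 (0.00756) and Fgf21 (0.00891) higher and Fgf8 lower (0.0390). Of the 63 genes, 57 entered that test, with 27 called higher and 8 lower. Fgf20 had at most 7 reads in a library (edgeR adjusted p = 0.125). Fgf5 and Fgf19 had at most 3 reads in any library, and Fgf3 and Fgf4 had none. At this depth 3 reads, the limit that a count of 0 allows, correspond to 0.0726 to 0.152 scaled CPM, and this covers counting error only.

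HGF is made by mesenchymal cells and acts on neighbouring epithelium. Hgf stood at 3.04, 4.91 and 3.05 scaled CPM in the fetal and 6.43, 9.46 and 8.16 in the postnatal libraries, without overlap (0.96 ± 0.21; adjusted p = 0.00462). Within the postnatal group, Hgf, Fgf1, Fgf2 and Fgf10 were highest in replicate 2, where the summed mesenchyme markers were also highest, at 11661 against 6625 and 9803. Fgf7 was level between replicates 2 and 3. Summed endothelial, Schwann cell, macrophage and lymphocyte markers also peaked in replicate 2, as did 23 of the 43 tested genes. The remaining marker sums peaked in replicate 1 or 3. For Fgf1, replicates 2 and 3 were close (5.64 and 5.46). The part of these cell types in the ligand levels was not tested.

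**Figure D2:**
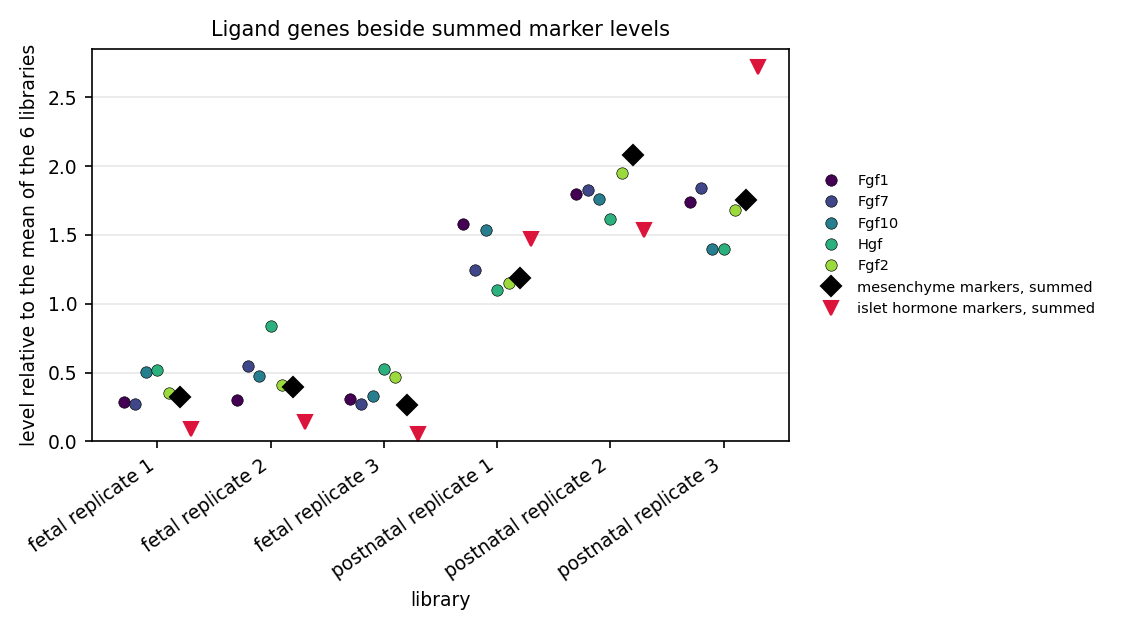
Level in each library relative to the mean of the 6 libraries (linear axis from 0) for 5 ligand genes, the summed mesenchyme markers (diamonds) and the summed islet hormone genes (triangles). The ligand genes drawn, Fgf1, Fgf7, Fgf10, Hgf and Fgf2, all have higher values after birth, so their shared low fetal level follows from the choice. Btc and Nrg2, which fell, and Fgf22, which did not pass, are not drawn. The mesenchyme markers are low in all 3 fetal libraries. Summed acinar, endothelial, mesothelial, Schwann cell and adipocyte markers, also lower in every fetal library, are not drawn. Of the levels drawn, the hormone genes differ most between the groups.

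Ligands of the ERBB receptors moved in both directions: of 8 genes, 5 were tested, 2 rose and 2 fell. That is a called share of 80.0% of these 5, against 63.1% of all tested genes. Hbegf, encoding the heparin-binding ligand of EGFR and ERBB4, stood at 4.36, 3.78 and 2.87 in the fetal and 6.13, 15.9 and 20.9 in the postnatal libraries. All postnatal values were higher, and they were widely spread, with means of 3.67 ± 0.752 before and 14.3 ± 7.51 after birth (SD, n = 3 each), and a difference of 1.58 ± 0.39 (limma adjusted p = 0.00830). Tgfa, transforming growth factor alpha, a ligand of EGFR, stood at 9.82, 7.04 and 6.04 before and 11.5, 15.7 and 11.2 after birth (0.69 ± 0.20; adjusted p = 0.0186). Its rise did not pass without fetal replicate 2 (adjusted p = 0.0547), fetal replicate 3 (0.0673) or postnatal replicate 2 (0.0685). Btc, betacellulin, which binds EGFR and ERBB4, fell from 2.79, 3.00 and 3.85 to 1.52, 0.757 and 1.16 (-0.98 ± 0.19; adjusted p = 0.00267).

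Nrg2, a neuregulin that binds ERBB3 and ERBB4, showed the largest fall of the 43 tested genes. It stood at 4.42, 3.36 and 5.92 scaled CPM in the fetal and 1.06, 1.17 and 0.615 in the postnatal libraries, well apart (-1.50 ± 0.21; adjusted p = 6.55e-04). Nrg4, a ligand of ERBB4, was scattered in both groups, at 1.32, 0.629 and 2.81 before and 1.52, 0.206 and 0.785 after birth (-0.47 ± 0.37; adjusted p = 0.291). It passed as lower without fetal replicate 2 and postnatal replicate 1 together (-1.02; adjusted p = 0.0177). Nrg1 was below the minimum for the test, with 49, 35 and 18 reads before and 5, 29 and 26 after birth (edgeR adjusted p = 0.565). Areg, amphiregulin, had 12, 8 and 0 reads before and 2, 5 and 10 after birth (edgeR adjusted p = 0.892), and Ereg, epiregulin, had none in the fetal libraries and 1, 0 and 5 in the postnatal ones.

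Among the FGF receptor genes 2 of 5 fell and none rose, a called share of 40.0% against 63.1% of all tested genes. Fgfrl1, a receptor-like protein without a kinase domain, stood at 72.0, 52.2 and 73.0 scaled CPM in the fetal and 34.0, 25.7 and 16.2 in the postnatal libraries (-1.39 ± 0.26; adjusted p = 0.00229). Fgfr3 stood at 158, 145 and 163 before and 125, 105 and 75.3 after birth (-0.63 ± 0.18; adjusted p = 0.0156). In both genes the groups did not overlap, and postnatal replicate 3 was the lowest library. The Fgfr3 call was lost without fetal replicate 3 (-0.60; adjusted p = 0.0549) and after rescaling without the 20 highest genes (-0.39; adjusted p = 0.0759), a scaling under which the median difference over all genes became 0.20.

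The 3 other kinase receptors of FGFs did not pass. Fgfr1 stood at 110, 71.1 and 103 before and 86.4, 78.7 and 67.2 after birth (-0.27 ± 0.18; adjusted p = 0.218), and without fetal replicate 2, the lowest of its group, it passed as lower (-0.46; adjusted p = 0.0291). Fgfr2, the receptor of FGF7 and FGF10 in epithelium, stood at 58.6, 39.3 and 43.3 before and 48.2, 49.0 and 31.0 after birth (-0.14 ± 0.21; adjusted p = 0.573). Fgfr4 stood at 27.3, 18.8 and 22.7 before and 19.6, 22.9 and 19.2 after birth (-0.14 ± 0.15; adjusted p = 0.441). The sign of the last pair turned after rescaling without the 20 highest genes, to 0.09 for each. The gene totals used here do not separate the epithelial and mesenchymal splice forms of these receptors.

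The ERBB receptor genes differed in direction. Erbb4, a receptor of neuregulins, betacellulin and HB-EGF, rose from 3.16, 2.69 and 2.25 scaled CPM to 18.4, 9.88 and 6.59 (1.67 ± 0.32; adjusted p = 0.00261). The postnatal libraries differed by more among themselves than the fetal ones did, and replicate 1 was the highest. Egfr rose by less, from 29.7, 26.7 and 26.0 to 38.7, 40.2 and 35.9, with little spread in either group (0.46 ± 0.10; adjusted p = 0.00482; 0.70 when rescaled without the 20 highest genes). Erbb2, which has no ligand of its own and pairs with the other ERBB receptors, fell from 38.6, 27.0 and 25.3 to 17.8, 22.6 and 15.2 (-0.67 ± 0.20; adjusted p = 0.0184). The Erbb2 call was lost without fetal replicate 1 (-0.49; adjusted p = 0.0517), without postnatal replicate 3 (-0.55; adjusted p = 0.0606) and after rescaling without the 20 highest genes (-0.44; adjusted p = 0.139). Over the 8 receptors, 2 rose, 3 fell and 3 did not pass, and after that rescaling 1 fell. The called share was 62.5% before that rescaling, against 63.1% of all tested genes.

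**Figure D3:**
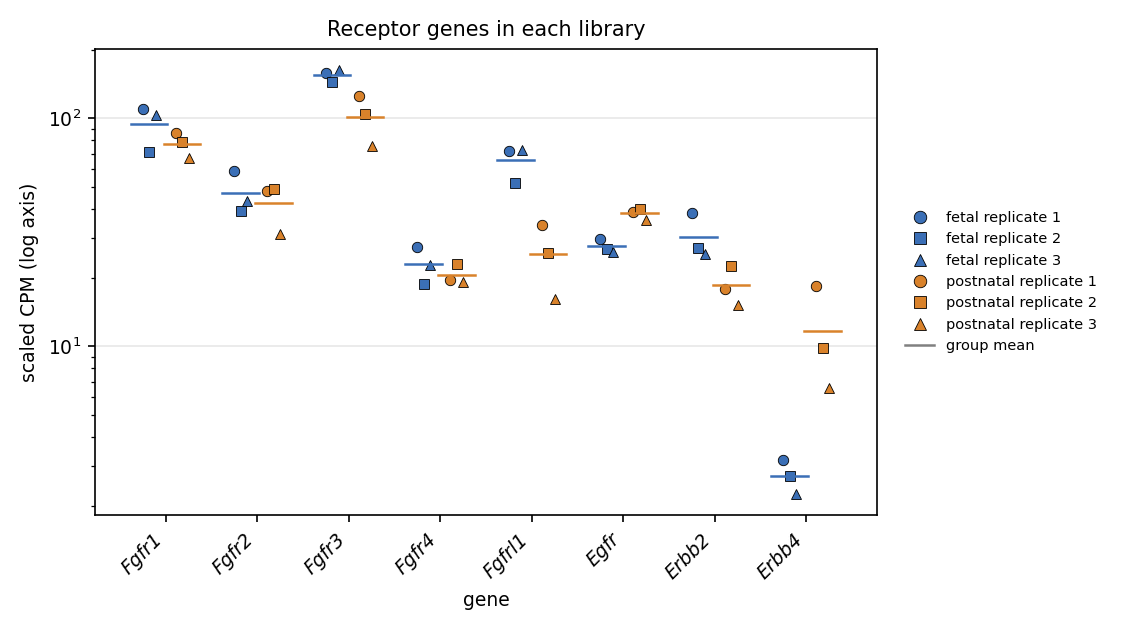
Scaled CPM (log axis) of the 8 receptor genes in each library, fetal in blue and postnatal in orange; symbols are replicates and lines are arithmetic group means. Erbb4 is the receptor with the widest gap between groups, and Fgfr1, Fgfr2 and Fgfr4 overlap.

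The 3 postnatal libraries did not follow 1 order across the 43 tested genes. In 23 genes replicate 2 was the highest, among them the 3 Sprouty genes, Tgfa, Hgf, Fgf1, Fgf10, Egfr and Erbb2. In 7 genes, Erbb4, Fgfr1, Fgfr3, Fgfrl1, Fgf12, Fgf22 and Dusp11, values were highest in replicate 1 and lowest in replicate 3, as was the acinar share of the reads (27.8%, 15.8% and 13.8%). In 7 further genes, Dusp1, Dusp5, Dusp8, Dusp10, Dusp14, Hbegf and Fgf7, values were lowest in replicate 1 and highest in replicate 3. The hormone share had the same order (4.06%, 6.45% and 11%). For Fgf7, replicates 2 and 3 were nearly level (1.86 and 1.88). The remaining 6 genes had another order. These orders were not counted over all tested genes, so none can be called particular to these 43. Replicate 1 is the library labelled postnatal week 2 and replicate 3 the one labelled week 4. Summed adipocyte markers (4.25, 20.3 and 30.9) and erythroid markers (16.9, 20.4 and 23.7) also increased from replicate 1 to replicate 3. With 3 libraries, acinar share, hormone share, these marker sums and labelled age cannot be told apart.

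Feedback genes rose or did not pass, and none fell. Of the 14 feedback genes 64.3% were called, all as higher. Over all tested genes 63.1% were called and 30.0% were called higher. Spry1 stood at 28.4, 26.8 and 25.4 scaled CPM in the fetal and 46.2, 65.3 and 63.8 in the postnatal libraries (1.08 ± 0.15; adjusted p = 5.11e-04). Spry2 stood at 7.71, 6.32 and 6.35 before and 13.9, 17.2 and 16.0 after birth (1.10 ± 0.14; adjusted p = 3.90e-04). Spry4 stood at 9.64, 7.33 and 8.14 before and 11.5, 16.8 and 16.7 after birth (0.76 ± 0.18; adjusted p = 0.00700). All 3 Sprouty genes were separated between the groups, as were 70.0% of all tested genes. Postnatal replicate 1 was the lowest of its group for each Sprouty gene. The 3 calls held under all 17 alternatives. The upstream windows of these genes, shown above, share neither motif across all 3.

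The 2 SPRED genes chosen by name, which encode membrane inhibitors of RAS activation, rose as well. Spred1 stood at 13.3, 13.4 and 10.9 before and 18.3, 22.5 and 20.2 after birth (0.66 ± 0.13; adjusted p = 0.00335). Spred2 stood at 3.35, 2.06 and 2.53 before and 4.66, 5.64 and 4.23 after birth (0.69 ± 0.18; adjusted p = 0.0113). Neither overlapped between the groups.

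Of 9 MAP kinase phosphatase genes, 4 rose and 5 did not pass, a called share of 44.4% against 63.1% of all tested genes. Dusp1, an immediate early gene for a nuclear phosphatase of p38, JNK and ERK, stood at 91.5, 85.2 and 63.9 scaled CPM in the fetal and 129, 265 and 287 in the postnatal libraries (1.42 ± 0.30; adjusted p = 0.00416). Dusp8, whose product acts on p38 and JNK, rose from 7.15, 4.21 and 3.02 to 10.2, 10.7 and 12.4 (1.12 ± 0.25; adjusted p = 0.00557). In both genes all postnatal libraries were higher. Dusp4, encoding a nuclear phosphatase, stood at 1.32, 2.52 and 1.11 before and 2.38, 5.37 and 4.47 after birth, and fetal replicate 2 overlapped with postnatal replicate 1 (0.92 ± 0.29; adjusted p = 0.0238). Without both of these libraries the difference was 1.42; without any of fetal replicates 1 and 3 and postnatal replicates 2 and 3 the call was lost (adjusted p = 0.0708 to 0.0862).

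Dusp10, whose product acts on p38 and JNK, stood at 20.7, 18.2 and 14.5 before and 21.3, 26.8 and 42.1 after birth (0.68 ± 0.24; adjusted p = 0.0398). Postnatal replicate 3 stood above the rest, and the difference was 0.42 without it (adjusted p = 0.0920). The call was also lost without fetal replicate 2, fetal replicate 3 or postnatal replicate 2 (adjusted p = 0.0740, 0.134 and 0.0685) with the replicate number as a block (adjusted p = 0.0818) and without the low-value filter (adjusted p = 0.0634). Dusp6, the cytoplasmic ERK phosphatase that is a standard readout of FGF signalling, was chosen for mention after its values were seen. It stood at 49.6, 48.0 and 45.5 before and 37.1, 51.0 and 43.7 after birth, with overlap (-0.13 ± 0.13; adjusted p = 0.405). Dusp7, an ERK phosphatase chosen in the same way, was higher in each postnatal library without passing (0.31 ± 0.13; adjusted p = 0.0620), and edgeR on recovered reads called it higher (adjusted p = 0.0416). The remaining 3, Dusp2, Dusp5 and Dusp16, had differences from -0.12 to 0.19 with overlapping groups.

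**Figure D4:**
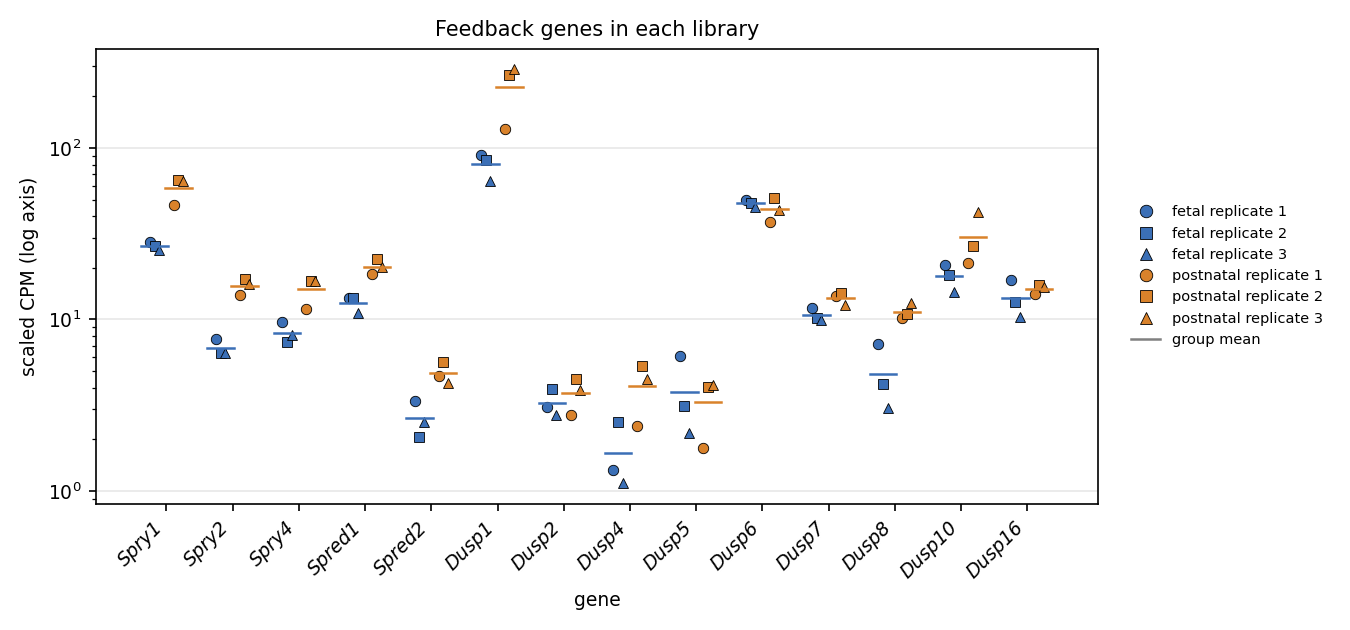
Scaled CPM (log axis) of the 14 feedback genes in each library, fetal in blue and postnatal in orange; symbols are replicates and lines are arithmetic group means. The Sprouty and SPRED genes and Dusp1, Dusp7, Dusp8 and Dusp10 separate the groups, while Dusp6 overlaps at 37.1 to 51.0. Separated genes make up 64.3% of the feedback genes, against 70.0% of all tested genes.

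Dusp1 and Hbegf are also known as immediate early genes. Among other genes of that kind, chosen after their values were seen, results differed. Ier3 rose from 26.3, 20.5 and 15 to 37.7, 73.4 and 87.7 (1.59 ± 0.32; adjusted p = 0.00332), and Atf3 rose by 1.62 ± 0.42 (adjusted p = 0.0110). Fos stood at 612, 598 and 647 in the fetal and 364, 659 and 818 in the postnatal libraries (-0.09 ± 0.28; adjusted p = 0.794). Egr1 stood at 144, 103 and 104 before and 94.5, 136 and 113 after birth (-0.03 ± 0.18; adjusted p = 0.882). Fos and Egr1 did not pass, and their groups overlapped. Within the postnatal group Ier3 and Fos had the same order as Dusp1 and Hbegf, lowest in replicate 1 and highest in replicate 3.

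Atypical DUSPs, which lack the MAP kinase binding domain, were split. Of 12 genes, 7 were tested, 3 rose and 2 fell. Dusp3, whose small phosphatase acts on ERK and JNK, rose from 26.2, 29.4 and 21.0 to 44.5, 59.8 and 54.8 (1.03 ± 0.16; adjusted p = 9.08e-04). Dusp14 rose from 1.90, 1.96 and 1.54 to 3.85, 5.92 and 6.32 (1.16 ± 0.19), and Dusp18 by 0.71 ± 0.16. Dusp11, whose product removes phosphate from RNA ends, fell from 38.2, 35.9 and 47.3 to 27.5, 21.8 and 19.8 (-0.79 ± 0.16; adjusted p = 0.00309), and Dusp27 by 1.04 ± 0.21. Each of these 5 genes separated the groups. That is 71.4% of the 7 tested, both called and separated, against 63.1% and 70.0% of all tested genes. Dusp12 and Dusp19 stood close together in both groups, with differences of -0.01 ± 0.14 and -0.04 ± 0.13. Dusp13, Dusp15, Dusp21, Dusp23 and Dusp26 were below the minimum for the test, with 0 to 38 reads per library; edgeR called none of the 4 that had at least 10 reads in all (adjusted p = 0.0572 to 0.175).

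The FGF homologous factors stay inside the cell, do not activate FGF receptors and bind voltage-gated sodium channels. Fgf12 rose from 0.952, 1.33 and 0.401 to 3.54, 2.34 and 2.32 (0.99 ± 0.23; adjusted p = 0.00673; 1.61 with a pseudocount of 0.1 and 0.39 with a pseudocount of 5). Fgf13 stood at 2.73, 1.21 and 1.05 before and 1.52, 1.69 and 1.57 after birth, within the fetal range (0.01 ± 0.24; adjusted p = 0.963). Fgf14 had 6, 3 and 1 reads before and 9, 27 and 35 after birth, higher by edgeR (adjusted p = 0.00494), and Fgf11 had 17 to 26 reads in every library. The other 2 genes matched by name alone: Fgfr1op2 stood at 65.0 to 68.6 before and 64.1 to 65.1 after birth (-0.05 ± 0.08; adjusted p = 0.607), and Dusp14l1 had 10 to 16 and 13 to 33 reads (edgeR adjusted p = 0.0133, higher). Dusp14l1 resembles Dusp14 by name, and how reads were shared out between the pair is uncertain.

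**Figure D5:**
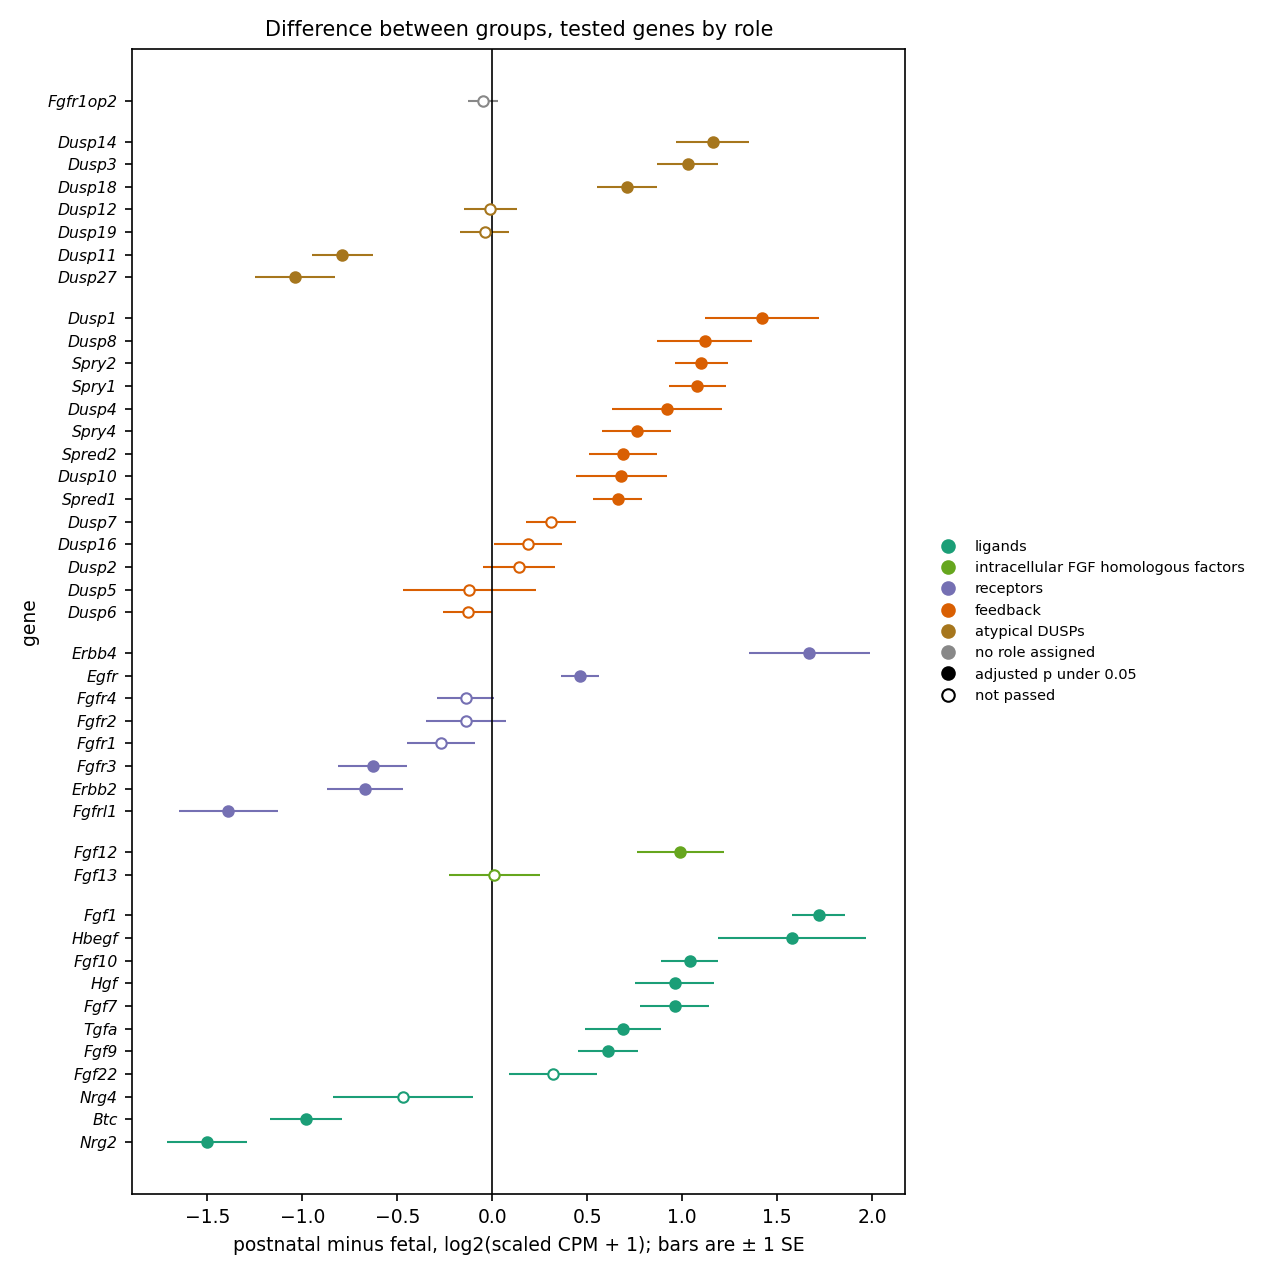
Postnatal minus fetal difference on the log2(scaled CPM + 1) scale for the 43 tested genes by role, with bars of 1 SE; filled points have an adjusted p under 0.05. The feedback genes lie between -0.13 and 1.42 with no filled point below 0, whereas ligands and receptors have filled points on both sides.

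The rest of the pathway was read from 6 lists of other genes. Of all tested genes 63.1% were called. The corresponding shares were 40.0% of receptor adaptors, 46.2% of RAS-ERK cascade genes and 50.0% of genes induced by ERK signalling. They were 80.0% of co-receptor and heparan sulfate genes, 50.0% of ERBB partners and regulators and 71.4% of genes that process HGF. Of 10 receptor adaptors, 4 rose and none fell (median 0.24), led by Gab2 (0.56 ± 0.13) and Grb2 (0.48 ± 0.11). Of 13 genes of the RAS-ERK cascade, 2 rose, 4 fell and 7 did not pass (median 0.00). Nras fell from 65.9, 74.1 and 76.8 to 39.2, 37.2 and 38.1 (-0.90 ± 0.10; adjusted p = 1.87e-04), and Rps6ka1, encoding the ERK-activated kinase RSK1, fell by 0.74 ± 0.10. The scaffold gene Ksr1 (0.90 ± 0.21) and Rps6ka2 (0.85 ± 0.10), encoding another kinase of the RSK family, rose.

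Of 10 genes induced by ERK signalling, 5 rose and 5 did not pass (median 0.46). Etv1, an ETS transcription factor of the FGF response, rose from 21.8, 16.3 and 9.59 to 52.1, 59.7 and 84.9 (2.02 ± 0.29; adjusted p = 6.97e-04). Ier3, given above, was the other large rise of this list. The related ETS genes Etv5 and Etv4 were chosen after their values were seen: Etv5 rose by 0.70 ± 0.24 (adjusted p = 0.0339), and Etv4 did not pass (0.41 ± 0.22; adjusted p = 0.145).

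Of 15 tested co-receptor and heparan sulfate genes, 6 rose and 6 fell (median -0.04). The sulfatase paralogs moved in opposite directions: Sulf1 rose from 14.6, 19.9 and 12.4 to 33.9, 69.7 and 65.6 (1.74 ± 0.29), while Sulf2 fell from 76.7, 72.9 and 66.1 to 27.5, 42.2 and 34.2 (-1.05 ± 0.16; adjusted p = 7.93e-04). The sulfotransferase gene Hs6st2 fell by 1.10 ± 0.13. Of the other sulfotransferase genes listed, Hs6st1 fell by 0.56 ± 0.11 and Hs2st1 did not pass (0.01 ± 0.11; adjusted p = 0.922). Sdc2, encoding the heparan sulfate carrier syndecan 2, rose by 1.44 ± 0.21. Sulf1 was highest in postnatal replicate 2, as were the mesenchyme, endothelial, Schwann cell, macrophage and lymphocyte markers, whose part in it was not tested.

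Of 10 ERBB partners and regulators, 2 rose, 3 fell and 5 did not pass (median -0.14). Erbb3, the receptor without an active kinase that pairs with ERBB2, fell from 67.7, 47.7 and 48.3 to 27.6, 29.9 and 21.6 (-1.01 ± 0.17; adjusted p = 0.00160). Lrig2 rose by 0.60 ± 0.09. The smaller differences of Rnf41 (0.25 ± 0.09) and Grb7 (-0.46 ± 0.14) lost their calls when any one of 5 (Rnf41) or 4 (Grb7) libraries was left out, with adjusted p up to 0.0951 and 0.0787. The Rnf41 call was also lost with the replicate block (adjusted p = 0.0840) and without fetal replicate 2 and postnatal replicate 1 together (adjusted p = 0.0999). When the 20 highest genes were left out of the scaling, Rnf41 stood at 0.49 and the Grb7 call was lost (-0.24; adjusted p = 0.176).

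Of 7 genes that process HGF, 2 rose and 3 fell (median -0.40). The plasminogen activator genes rose, Plau from 5.25, 6.61 and 4.41 to 19.9, 36.1 and 41.1 (2.33 ± 0.27; adjusted p = 2.61e-04) and Plat by 2.10 ± 0.24. St14, encoding the membrane protease matriptase, fell from 97.3, 76.4 and 86.0 to 45.4, 33.9 and 22.2 (-1.38 ± 0.24), and Spint2, encoding an inhibitor of such proteases, by 0.60 ± 0.18. The Spint2 call was lost without fetal replicate 2, fetal replicate 3, postnatal replicate 2 or postnatal replicate 3 (adjusted p = 0.0515 to 0.0720) and after rescaling without the 20 highest genes (-0.36; adjusted p = 0.0553).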

How the data were processed

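RNA sequencing of 6 rat islet libraries was analysed, 3 fetal and 3 postnatal, grouped by title. TopHat2 2.0.8b and edgeR 3.30.3 are named without roles, per the submitters' processing notes; the genome build, annotation, counting tool and strand setting were not given in the sources used here. Reads of overlapping genes on either strand may therefore be mixed. The deposited signal is, per library, a whole number of reads times 1 constant (100% of values whole within 0.001 reads), and the constants match CPM of TMM-adjusted library sizes (factors 0.677 to 1.25). A row without a gene name (at most 9 reads per library, 3.19e-05%) was left out of the tests.

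limma 3.58.1 (R 4.3.3; intensity trend, group as sole term, two-sided) was run on log2(value + 1) over genes with at least 1 in at least 3 libraries, with Benjamini-Hochberg adjustment over all of them; the script was tested on simulated data. Named genes were every tested ligand, receptor, homologous factor, Sprouty and SPRED gene, up to 5 called genes of each DUSP class by size, and up to 2 rises and 2 falls per pathway list. The genes and lists were chosen with earlier results of these data known. The table held 66 entries of the pathway lists and 67 of the marker lists, and RefSeq (GRCr8) promoter sequences were matched for 52 of 63 genes.

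Alternatives were pseudocounts of 0.1 and 5, no low-value filter, a minimum of 5, 2 scalings, a replicate block, labelled week as covariate, left-out libraries, and 2 count tools run on the recovered reads, edgeR 4.0.16 and DESeq2 1.42.0. A looser edgeR run over genes with at least 10 reads in all was added after the data were seen. Replicates differed by more than counting noise (chi-square divided by its degrees of freedom, 45.6 to 370; Pearson r of log2 values across genes, which are not independent, 0.970 to 0.988), so none was treated as a duplicate.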

Additional observations from a re-analysis of the deposited data

How the results depend on the processing

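Of the 29 genes called, 23 kept call and direction under all alternatives that could test them (up to 17 each), 6 lost the call under at least 1 (Dusp4, Dusp10, Erbb2, Fgf9, Fgfr3 and Tgfa), and none changed sign. With a minimum of 5 in 3 libraries, fewer genes were tested, and 13 rose and 4 fell, among them 3 ligands higher and 0 lower, 0 homologous factors higher, and 1 atypical DUSP in each direction. Without the low-value filter, 2 homologous factors were higher. After rescaling without the 20 highest genes, 1 receptor was lower, and over all genes 5047 were higher and 3222 lower, against 3874 and 4278; the cause was not tested. Leaving out libraries gave 19 to 22 higher and 6 to 9 lower of the 43 genes, 6 to 8 ligands higher and 2 to 3 lower, and 2 to 4 receptors lower; the count of higher feedback genes ranged from 7 to 9. Sign changes occurred only in 8 genes that did not pass. After rescaling without the 20 highest genes, Dusp12, Dusp19, Dusp5, Dusp6, Fgfr1op2, Fgfr2 and Fgfr4 stood at 0.20, 0.17, 0.06, 0.11, 0.19, 0.09 and 0.09. With libraries left out, values ranged from -0.10 to 0.06 for Dusp12, -0.09 to 0.02 for Dusp19, -0.38 to 0.20 for Dusp5, -0.26 to 0.07 for Fgfr2 and -0.15 to 0.28 for Fgf13 (without fetal replicate 2 and postnatal replicate 1 together, 0.06 for Dusp12, 0.10 for Dusp5 and -0.07 for Fgf13). Dusp12 stood at 0.02 with edgeR and 0.03 with DESeq2, and Fgf13 at -0.01 with a pseudocount of 5 and -0.02 with both count tools. Correlations of same-numbered deviations from the group means were -0.207, 0.102 and -0.253, and those of unlike numbers ranged from -0.361 to 0.431. With 3 libraries per group these values cannot settle whether same-numbered samples share a preparation. With the replicate block 21 rose and 7 fell, and over all genes 3563 and 3863. With at most 49 reads in a library, genes below the minimum allow no firm statement.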
